A study of Mus musculus with 23 samples.

Results

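The circadian clock of brown adipose tissue (BAT) was examined through 9 genes of its activating and output arms, all chosen by name: Arntl, Clock and Npas2, which encode the clock activators, Dbp, Tef and Hlf, which encode the PAR bZIP transcription factors, and the repressors Nfil3, Bhlhe40 and Bhlhe41. The choice was made with earlier results of these data known. Shares of the 9 set against all genes below thus describe them and are no independent test. All 9 were among the 14651 genes with normalized counts. RNA was sequenced from the BAT of 23 male C57BL/6 mice aged 8 to 12 weeks, in which both copies of Mcu, the pore subunit of the mitochondrial calcium uniporter, carried loxP sites around exon 2 (Mcu fl/fl). Control mice had no Cre, and BAT-Mcu-KO (knockout) mice also carried a Cre recombinase driven by the Ucp1 promoter, so that the deletion is limited to cells in which that promoter has been active. The groups were 6 control mice at room temperature (RT), 5 control mice at 4°C, 6 BAT-Mcu-KO mice at RT and 6 BAT-Mcu-KO mice at 4°C, with a 6 h stay in the cold. Mice in the cold were housed singly without bedding, and food was withheld unless stated otherwise, so cold, housing and food cannot be told apart. The clock time at which tissue was taken is not given in the sources used here. A difference in that time between groups thus cannot be told apart from cold either. Below, a difference by cold means 4°C against RT.

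As background, the product of Arntl (BMAL) pairs with CLOCK or with its relative NPAS2, binds E-box sequences and switches on the genes of its own repressors, the PER and CRY proteins and the REV-ERB receptors, as well as output genes. Dbp is a textbook output gene of this pair, and the factor it encodes binds D-box sequences together with TEF and HLF, while NFIL3 binds the same sequences and represses. ROR receptors raise, and REV-ERB receptors lower, transcription from a further element, the RORE, through which Arntl itself is controlled, and the products of Bhlhe40 and Bhlhe41 compete at E-boxes as repressors. In adipose tissue this clock is known for daily rhythms in lipid handling and heat production.

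The promoter windows below, from 250 bases before to 50 bases after a transcription start (RefSeq, GRCm38.p6, printed 5′ to 3′ on the strand of the gene), are shown because they hold an element through which clock factors or cyclic AMP act. Of the 9 genes 8 matched a window (all but Bhlhe40), with 12 windows in all. Capitals mark the RORE core AGGTCA, which reads TGACCT if it lies on the opposite strand, the E-box CACGTG, or the cyclic AMP response element TGACGTCA. They also mark the short form of that element, TGACG, which on the opposite strand reads CGTCA.
Arntl, second start, chr7:113207261-113207560, plus strand: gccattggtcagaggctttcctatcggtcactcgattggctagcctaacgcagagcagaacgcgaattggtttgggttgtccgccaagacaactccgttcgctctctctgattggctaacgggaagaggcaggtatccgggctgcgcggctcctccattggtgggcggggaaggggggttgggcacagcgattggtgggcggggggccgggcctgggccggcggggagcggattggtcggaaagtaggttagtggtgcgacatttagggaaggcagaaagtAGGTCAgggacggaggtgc
Nfil3, chr13:52980990-52981289, minus strand: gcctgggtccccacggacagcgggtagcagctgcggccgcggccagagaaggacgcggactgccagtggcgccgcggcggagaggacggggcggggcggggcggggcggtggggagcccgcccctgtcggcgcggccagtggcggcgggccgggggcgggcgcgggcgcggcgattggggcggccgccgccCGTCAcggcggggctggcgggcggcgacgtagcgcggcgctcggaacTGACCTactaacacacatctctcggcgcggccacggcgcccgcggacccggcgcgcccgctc
Hlf, chr11:90390868-90391167, minus strand: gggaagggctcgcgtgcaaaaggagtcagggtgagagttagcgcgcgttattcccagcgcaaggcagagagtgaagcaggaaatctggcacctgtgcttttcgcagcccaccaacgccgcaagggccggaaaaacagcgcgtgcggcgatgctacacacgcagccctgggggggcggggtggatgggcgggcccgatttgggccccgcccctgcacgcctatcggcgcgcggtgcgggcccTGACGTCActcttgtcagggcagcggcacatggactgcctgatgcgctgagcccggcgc
Tef, first start, chr15:81802423-81802722, plus strand: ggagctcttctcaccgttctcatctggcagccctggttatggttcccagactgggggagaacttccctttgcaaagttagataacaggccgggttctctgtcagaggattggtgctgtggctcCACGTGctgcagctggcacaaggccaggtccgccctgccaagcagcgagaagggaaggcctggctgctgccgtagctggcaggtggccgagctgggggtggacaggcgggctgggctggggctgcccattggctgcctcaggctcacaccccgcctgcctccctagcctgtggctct
Bhlhe41, chr6:145865371-145865670, minus strand: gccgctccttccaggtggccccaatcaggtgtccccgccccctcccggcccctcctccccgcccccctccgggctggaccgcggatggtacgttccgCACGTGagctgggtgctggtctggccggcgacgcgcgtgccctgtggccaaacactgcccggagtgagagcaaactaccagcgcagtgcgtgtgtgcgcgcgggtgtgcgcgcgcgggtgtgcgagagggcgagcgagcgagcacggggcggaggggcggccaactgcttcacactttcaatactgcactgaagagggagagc

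Counted from the transcription start, the RORE core stood at 32 in the second Arntl window and, on the opposite strand, at -12 in the Nfil3 window. The first Arntl window, not printed here, did not hold it. Of the 32851 promoter windows of all genes, 16.3% hold this core on either strand. Read outward from it, the Arntl and Nfil3 windows shared the run AGTAGGTCAG, a longer match looked for after the windows had been seen, which 28 of the 32851 windows hold on either strand (0.0852%) and which no other of the 8 genes with a window held. Clock carried the core in 1 of its 3 windows, at -119 on the opposite strand. The E-box was present in both Tef windows, at -127 and -138, and at -153 in the Bhlhe41 window, against 7.15% of all windows. The Hlf window held the full cyclic AMP element at -9 (1.79% of all windows), which contains its short form on each strand, and the Nfil3 window held the short form alone, at -59 on the opposite strand (20.8% of all windows). The E-box variant CACGTT (4.68% of all windows) and the D-box forms TTATGTAA (0.938%) and TTACGTAA (0.119%), searched on both strands, were in none of the 12 windows, and the Npas2 and Dbp windows held none of the letters searched. A match of letters describes the window and does not show that a factor binds there.

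Depth was 7129271 to 21006347 reads per mouse. Mcu, the targeted gene, matched the labels: its normalized count was 81.4 to 136 in control and 15.2 to 42.4 in knockout mice at RT, and 70.8 to 132 against 24.0 to 39.9 at 4°C. The tissue showed its defining marker Ucp1, the uncoupling protein of brown fat, which was 2.59-fold (control) and 2.77-fold (knockout) higher at 4°C. Of 7 brown adipocyte markers, Ucp1 included, 3 were higher and 3 lower by cold in control mice and 2 higher and 1 lower in knockout mice. Skeletal muscle marker transcripts, summed over 6 genes, ranged from 0 to 41185 across mice and exceeded 20000 in 5 libraries (control at 4°C replicates 2 and 5, BAT-Mcu-KO at RT replicates 3, 4 and 6), and 0 of these 6 markers passed the test by cold in either genotype. Calls of clock genes that changed without these 5 libraries are given beside the results. Summed endothelial markers (4 genes) did not overlap between temperatures, at 2437 to 3699 in all mice at RT and 4255 to 7352 in all mice at 4°C, and 2 of the 4 were higher by the test in each genotype. White adipocyte markers, summed over 3 genes, were 608 to 1848 at RT and 314 to 716 at 4°C, with 2 of 3 lower by the test in each genotype. Macrophage markers, summed over 4 genes, were 298 to 419 at RT and 288 to 498 at 4°C in control mice, where 0 of 4 passed, and 199 to 398 at RT against 371 to 602 at 4°C in knockout mice, where 2 of 4 were higher. The part of these markers in the results below was not tested, and in bulk tissue fewer cells of a type and less RNA per cell cannot be told apart.

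The difference by cold had the same sign in both genotypes for each of the 9 genes, and 8 of them passed the test in both. The activators Arntl, Clock and Npas2 and the D-box repressor Nfil3 were higher at 4°C, and Dbp, Tef, Hlf and Bhlhe40 were lower, while Bhlhe41 was lower by the test in knockout mice alone. The test was limma on log2(normalized count + 1), with p-values adjusted by Benjamini-Hochberg over 14651 genes and a call at an adjusted p under 0.05. In control mice 8 of the 9 genes were called (4 higher, 4 lower), against 46.0% of all genes, 22.3% higher and 23.7% lower. Over all genes 3269 of the 6735 calls in control mice were higher, and 2644 of 6925 were when each library was scaled to its 75th percentile, which lowered the median log2 difference of all genes from -0.02 to -0.13 and left the direction and the call of each of the 9 as they were. In knockout mice all 9 were called (4 higher, 5 lower), against 43.3% of all genes, 21.4% higher and 21.9% lower. A large part of all genes thus differed between temperatures, and a call by itself sets these genes little apart from that background. Calls in the same direction in both genotypes were made for 34.8% of all genes, and 83.3% of all genes had the same sign in both. The comparisons by cold in the 2 genotypes share no mice. Fitted rises of at least 2-fold, called in both genotypes, were found for 4 of the 9 (Arntl, Clock, Npas2 and Nfil3), against 4.88% of all genes, and such falls for 1 of the 9 (Hlf), against 6.25%. Npas2 passed the filter on reads through mice at 4°C alone, so its rise was largely fixed beforehand and adds no support to these counts. Over the 9 genes, Npas2 included, the median absolute log2 difference was 1.21 (control) and 1.09 (knockout), against 0.45 and 0.40 over all genes. The size of the Npas2 rise adds no support to these medians either.

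**Figure D1:**
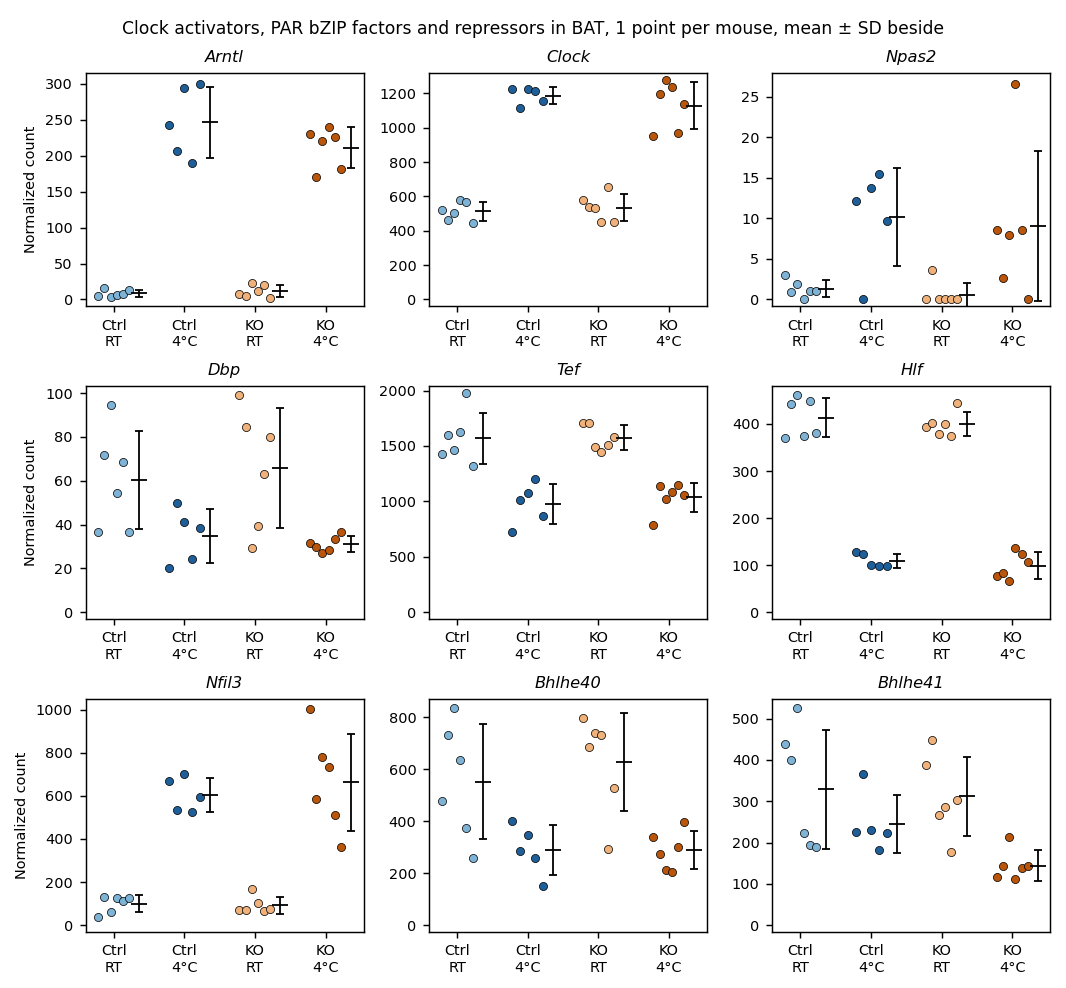
Normalized counts of the 9 clock genes (y axis, linear, a separate scale for each gene) in the 4 groups, with 1 point per mouse and the mean ± SD to the right of the points (KO, BAT-Mcu-KO). Arntl, Clock and Nfil3 at 4°C lie above all mice at RT in both genotypes, Tef and Hlf lie below, and the other genes overlap.

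Arntl, the obligate partner in the activating pair, showed the widest change of the 9 in limma's log2 difference. Its normalized count in control mice at RT was 3.78 at the lowest, 6.89 at the median and 15.5 at the highest, and the 5 control mice at 4°C had 243, 206, 294, 190 and 300. Knockout mice had 1.97, 9.71 and 23.5 (lowest, median and highest) at RT and 170, 223 and 240 at 4°C. Every mouse at 4°C lay far above every mouse at RT. The ratio of group means was 29.3 in control and 18.3 in knockout mice. On the log2 scale the difference was 4.84 (SE 0.393, adjusted p = 3.08e-10) in control and 4.41 (SE 0.374, adjusted p = 7.21e-10) in knockout mice. By DESeq2 Npas2 came above it in knockout mice (4.21 against 4.17). Of the 14651 genes, 16 had a larger log2 rise than Arntl in each genotype. The level at RT rested on 2 to 25 reads per mouse and that at 4°C on 120 to 374, so the size of the fold is less certain than its direction. With a pseudocount of 10 in place of 1 the log2 difference was 3.82 in control and 3.45 in knockout mice. Arntl lies at chr7:113207465-113314126 on the plus strand (GRCm38).

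Clock, which encodes the usual partner of BMAL and lies at chr5:76209868-76304792 on the minus strand, was well expressed at both temperatures. Its normalized count in control mice was 448, 511 and 580 (lowest, median and highest) at RT and 1224, 1115, 1227, 1217 and 1155 at 4°C. Knockout mice had 450, 536 and 655 at RT and 952, 1168 and 1277 at 4°C. The temperature groups did not overlap, and mice within a group were close, with an SD of 4.22% to 14.6% of the mean. The mean was 2.31-fold higher at 4°C in control (log2 difference 1.21, SE 0.102, adjusted p = 5.55e-10) and 2.11-fold higher in knockout mice (1.08, SE 0.097, adjusted p = 1.91e-09). Because Arntl rose more than Clock, the ratio of Clock to Arntl, each per kb of exon, had a median of 45.9 in control mice at RT (16.3 to 72.8) and 2.76 at 4°C (2.11 to 3.52). In knockout mice the same ratio had a median of 31.1 at RT (12.4 to 125) and 3.00 at 4°C (2.26 to 3.86). The ratios at RT divide by Arntl levels that rested on 2 to 25 reads per mouse, so their size is uncertain. It also depends on the merged lengths of all annotated exons (13727 bases for Clock, 7523 for Arntl).

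Npas2, which encodes the relative of CLOCK that can take its place, was near the limit of detection. At RT it had 4, 1, 2, 0, 1 and 1 reads in the control mice and 3 reads in 1 of 6 knockout mice, with 0 in the other 5. At 4°C it had 6, 0, 11, 21 and 12 reads in control and 13, 3, 5, 29, 11 and 0 reads in knockout mice. One mouse at 4°C in each genotype thus held no read, and the temperature groups overlapped. Genes were kept only with 8 or more reads in at least 6 samples, and no mouse at RT had more than 4 Npas2 reads. Npas2 was thus kept through mice at 4°C alone, so a higher level there was largely fixed by the filter. Summed over mice and divided by depth, the reads were 7.67-fold higher at 4°C in control (50 against 9 reads, exact 95% counting interval 3.73 to 17.7) and 18.5-fold higher in knockout mice (61 against 3 reads, 6.05 to 92.3). These intervals treat pooled reads as independent and leave out the spread between mice. PCR copies are not independent molecules, so the counting error may be understated as well. In limma the log2 difference was 1.92 (SE 0.749, adjusted p = 0.0384) in control and 2.35 (SE 0.714, adjusted p = 0.00941) in knockout mice. The call in control mice was weak: leaving out any 1 of 8 of the 11 mice (all but RT replicates 1 and 3 and 4°C replicate 2) gave adjusted p-values of 0.0539 to 0.101, and a pseudocount of 0.5 gave 0.0724. Without 4°C replicate 2, which held no read, the difference was 2.67. The call in knockout mice was lost without the libraries highest in muscle markers (1.98, adjusted p = 0.0576). Npas2 lies at chr1:39193731-39363236 on the plus strand.

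Among the PAR bZIP genes Hlf fell the most. Its normalized count in control mice was 371, 412 and 461 (lowest, median and highest) at RT and 127, 124, 101, 97.7 and 97.8 at 4°C. Knockout mice had 375, 397 and 445 at RT and 65.5, 95.9 and 137 at 4°C. The highest mouse at 4°C stayed far below the lowest at RT. The mean at RT was 3.77-fold that at 4°C in control (log2 difference -1.91, SE 0.148, adjusted p = 1.27e-10) and 4.02-fold in knockout mice (-2.05, SE 0.141, adjusted p = 2e-11). Of the 14651 genes, 324 fell further in control and 190 in knockout mice. Hlf lies at chr11:90336536-90390895 on the minus strand.

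Tef, the most abundant of the 3 PAR bZIP genes, fell less but without overlap between temperatures. In control mice its normalized count was 1319, 1532 and 1978 (lowest, median and highest) at RT and 726, 1011, 1078, 1200 and 872 at 4°C. Knockout mice had 1445, 1545 and 1709 at RT and 791, 1071 and 1145 at 4°C. The mean at RT was 1.61-fold that at 4°C in control (log2 difference -0.69, SE 0.117, adjusted p = 2.83e-05) and 1.51-fold in knockout mice (-0.61, SE 0.112, adjusted p = 8.94e-05). Tef lies at chr15:81802421-81826863 on the plus strand and shares 193 exonic bases with the antisense gene Gm17597, which was also lower at 4°C (log2 difference -2.17 in control and -2.79 in knockout mice); reads were counted without regard to strand, so the shared bases cannot be assigned.

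Dbp, whose daily rhythm in other tissues is among the widest known, was low in BAT and scattered between mice. Its normalized count in control mice was 36.5, 61.4 and 94.4 (lowest, median and highest) at RT and 20.2, 50.1, 41.1, 24.2 and 38.5 at 4°C. Knockout mice had 29.1, 71.6 and 99.2 at RT and 27.2, 30.7 and 36.7 at 4°C. The groups overlapped, with 2 of 5 control and 2 of 6 knockout mice at 4°C below all mice of their genotype at RT. The SD of knockout mice was 41.4% of the mean at RT and 11.2% at 4°C. The mean at RT was 1.73-fold that at 4°C in control (log2 difference -0.77, SE 0.295, adjusted p = 0.0354) and 2.12-fold in knockout mice (-0.94, SE 0.281, adjusted p = 0.00831). The call in control mice was lost on leaving out any of RT replicates 2, 3 and 5 or 4°C replicates 1 and 4 (-0.72 to -0.60, adjusted p = 0.0652 to 0.112) and with quantile normalization (adjusted p = 0.0730). Dbp lies at chr7:45705088-45710203 on the plus strand and shares 539 exonic bases with the antisense gene Sphk2, which was higher at 4°C in both genotypes (log2 difference 0.71 in each).

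Nfil3, the D-box repressor, moved against the PAR bZIP genes. In control mice its normalized count was 37.2, 119 and 133 (lowest, median and highest) at RT and 670, 533, 702, 525.98 and 596 at 4°C. Knockout mice had 66.9, 74.7 and 170.0 at RT and 360.4, 658 and 1001 at 4°C. The temperature groups did not overlap in either genotype. The mean was 6.08-fold higher at 4°C in control (log2 difference 2.71, SE 0.291, adjusted p = 3.33e-08) and 7.13-fold higher in knockout mice (2.83, SE 0.277, adjusted p = 8.06e-09), and 113 and 91 genes rose further. Nfil3 lies at chr13:52967209-52981073 on the minus strand.

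Non-overlapping temperature groups were thus seen for Arntl, Clock, Tef, Hlf and Nfil3, 5 of the 9 genes in each genotype, against 25.2% of all genes in control and 24.2% in knockout mice.

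Set on a common scale of normalized count per kb of exon, the D-box activators and their repressor changed places. The sum of Dbp, Tef and Hlf per kb had a median of 284 in control mice at RT (237 to 341) and 164 at 4°C (118 to 175), and in knockout mice of 282 (256 to 309) and 165 (123 to 175). Nfil3 per kb had a median of 58.7 (18.4 to 65.6) at RT and 294 (259.6 to 346) at 4°C in control mice, and of 36.9 (33.0 to 83.9) and 325 (178 to 494) in knockout mice. The summed activators were 3.77 to 13.6 times the Nfil3 level in each control mouse at RT and 3.05 to 9.00 times in each knockout mouse at RT. At 4°C they were 0.357 to 0.675 times the Nfil3 level in control and 0.248 to 0.915 times in knockout mice. On this scale Nfil3 mRNA thus exceeded the summed activators in all 11 mice at 4°C and in none of the 12 at RT. That order depends on the lengths used, which merge all annotated exons of a gene (7867 bases for Tef, 2026 for Nfil3). Before division by length, the mean of Tef alone exceeded that of Nfil3 at 4°C (977 against 605 in control, 1039 against 662 in knockout mice). Within the sum the share of Tef had a median of 71.8% at RT and 80.1% at 4°C in control mice, and of 71.2% and 82.8% in knockout mice. The share of Hlf had a median of 22.4% at RT and 10.6% at 4°C for control mice, and of 21.5% and 9.60% for knockout mice. These are levels of mRNA, and protein was not measured here.

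**Figure D2:**
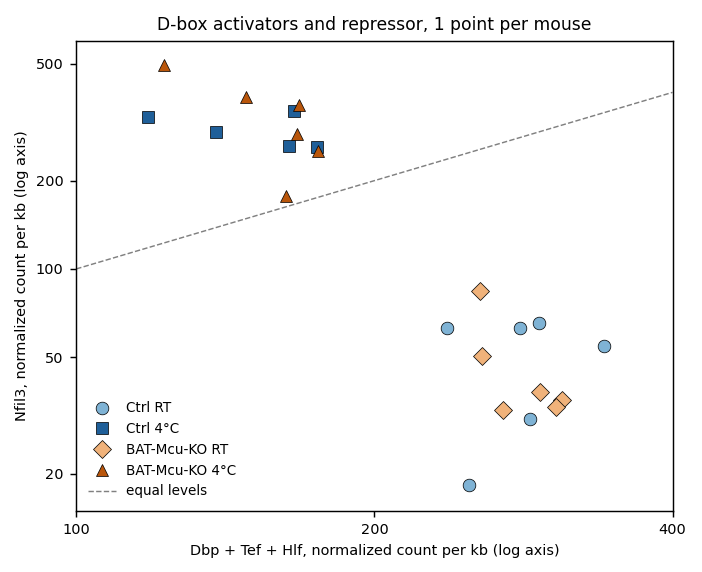
Nfil3 (y axis) against the sum of Dbp, Tef and Hlf (x axis), both as normalized count per kb of exon on log axes, with 1 point per mouse. All 11 mice at 4°C lie above the dashed line of equal levels and all 12 mice at RT lie below it.

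The order of the 9 genes per kb of exon also differed between temperatures. In control mice at RT the means ± SD ran from Tef (199 ± 29.2, n = 6) and Bhlhe40 (117 ± 47.0) through Hlf (61.9 ± 6.27), Nfil3 (49.2 ± 19.8), Bhlhe41 (48.9 ± 21.5) and Clock (37.4 ± 3.96) to Dbp (20.2 ± 7.49), Arntl (1.12 ± 0.629) and Npas2 (0.276 ± 0.216). The ranges of neighbours overlapped in this order except between Clock and Dbp and between Dbp and Arntl. In control mice at 4°C the order was Nfil3 (299 ± 39.1, n = 5), Tef (124 ± 23.3), Clock (86.5 ± 3.65), Bhlhe40 (61.5 ± 20.1), Bhlhe41 (36.5 ± 10.4), Arntl (32.8 ± 6.63), Hlf (16.4 ± 2.24), Dbp (11.6 ± 4.13) and Npas2 (2.12 ± 1.27). Nfil3 lay clear of Tef, Tef of Clock, Arntl of Hlf, and Dbp of Npas2, and the other neighbours overlapped. Knockout mice had Tef first at RT (199.96 ± 14.3, n = 6) and Nfil3 first at 4°C (327 ± 111, n = 6), with Npas2 last at both temperatures. This order, too, depends on the merged exon lengths. Before division by length, the means of Clock (1188 in control, 1128 in knockout mice) and Tef (977 and 1039) at 4°C exceeded those of Nfil3 (605 and 662).

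Bhlhe40 and Bhlhe41, which encode E-box repressors, varied between mice of a group, with an SD of 25.7% to 44.0% of the mean. Bhlhe40 in control mice had a normalized count of 257, 557 and 836 (lowest, median and highest) at RT and of 401, 287, 348, 259 and 152 at 4°C. Knockout mice had 292, 708 and 796 at RT and 205, 288 and 399 at 4°C. The temperature groups overlapped in both genotypes. The mean at RT was 1.91-fold that at 4°C in control (log2 difference -0.89, SE 0.286, adjusted p = 0.0123) and 2.18-fold in knockout mice (-1.09, SE 0.272, adjusted p = 0.00211). In control mice the call was lost without 4°C replicate 5 (-0.68, adjusted p = 0.0562), which held the lowest value and is among the libraries highest in muscle markers, and without all of those libraries (-0.63, adjusted p = 0.132). Bhlhe40 lies at chr6:108660629-108666925 on the plus strand and shares 118 exonic bases with the antisense gene 0610040F04Rik, which had no normalized counts here.

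Bhlhe41, at chr6:145858243-145865558 on the minus strand, was the only one of the 9 that was called in 1 genotype and not in the other. In control mice its normalized count was 190, 311 and 527 (lowest, median and highest) at RT and 225, 366, 230.2, 182 and 222 at 4°C. Knockout mice had 178, 295 and 449 at RT and 111, 140.4 and 214 at 4°C. Only 1 of 5 control mice at 4°C lay below all control mice at RT, against 5 of 6 knockout mice below all of theirs. The log2 difference was -0.34 (SE 0.259, adjusted p = 0.293) in control and -1.08 (SE 0.247, adjusted p = 0.000879) in knockout mice. The difference between these, tested as an interaction, was -0.74 (95% confidence interval -1.47 to -0.003, unadjusted p = 0.0491, adjusted p = 0.832), so the genotypes were not shown to differ. Bhlhe41 shares 1280 exonic bases with the antisense gene Gm43909, which had no normalized counts here. Reads were counted without regard to strand, so these shared bases cannot be assigned.

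**Figure D3:**
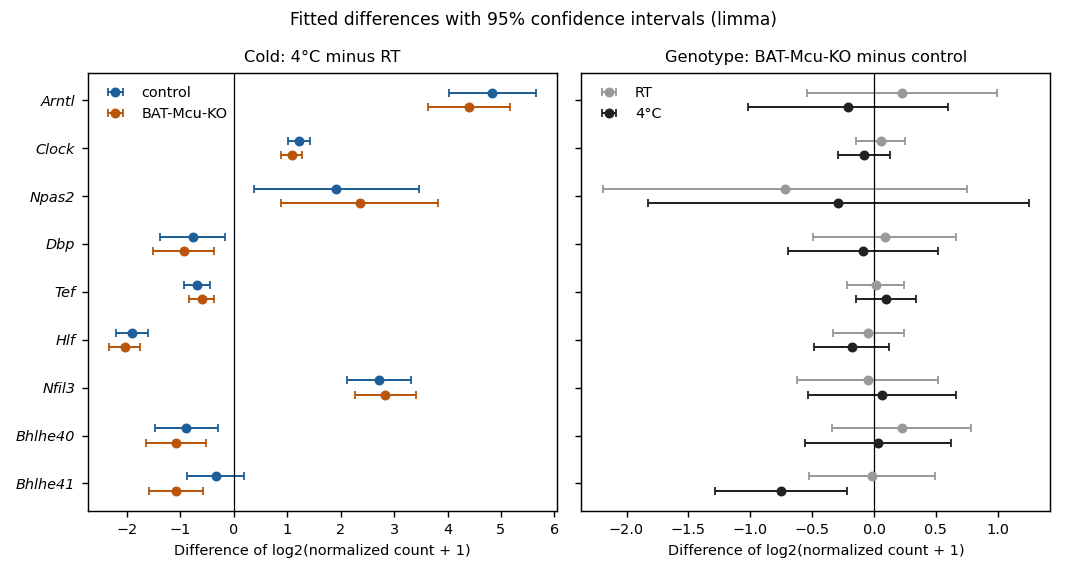
Differences of log2(normalized count + 1) for the 9 genes with 95% confidence intervals from limma (left, 4°C minus RT in each genotype; right, BAT-Mcu-KO minus control at each temperature; the x axes differ). Arntl, Clock, Npas2 and Nfil3 lie above 0 and the other genes below it by cold, while by genotype all intervals include 0 except that of Bhlhe41 at 4°C.

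The comparison of genotypes asked whether these genes differed between BAT-Mcu-KO and control mice, at rest or in the cold. Control mice had no Cre, so loss of the uniporter pore and presence of the Cre transgene cannot be told apart. None of the 9 was called at RT or at 4°C, where 0.0478% and 0.0751% of all genes were called, nor was any called by the interaction of genotype and temperature (0.0% of all genes). The tool edgeR also called 0 of the 9 in each of these 3 comparisons, as did DESeq2, which gave Npas2 no adjusted p at 4°C or by the interaction, and by the interaction DESeq2 called 28 and edgeR 0 of all genes. At an unadjusted p under 0.05 limma counted 0 of the 9 at RT, 1 at 4°C and 1 by the interaction, Bhlhe41 in each case, against 5.15%, 6.98% and 5.99% of all genes. At RT the log2 differences of BAT-Mcu-KO minus control lay between -0.72 (Npas2) and 0.23 (Arntl), with a smallest adjusted p of 0.993. The 95% confidence intervals at RT were narrow for Clock (-0.15 to 0.25), Tef (-0.22 to 0.24) and Hlf (-0.34 to 0.24). They were wider for Nfil3 (-0.62 to 0.52), Dbp (-0.49 to 0.67), Bhlhe40 (-0.34 to 0.79), Bhlhe41 (-0.52 to 0.49) and Arntl (-0.55 to 1.00), and widest for Npas2 (-2.19 to 0.75). At 4°C the intervals were -0.29 to 0.13 for Clock, -0.14 to 0.34 for Tef, -0.49 to 0.12 for Hlf, -0.53 to 0.66 for Nfil3, -1.02 to 0.60 for Arntl, -0.69 to 0.52 for Dbp, -0.56 to 0.62 for Bhlhe40 and -1.83 to 1.25 for Npas2. A change between genotypes of 2-fold or more, 1 on the log2 scale, thus lay outside the interval at both temperatures for Clock, Tef, Hlf, Nfil3, Dbp and Bhlhe40. It lay inside the interval for Npas2 at both temperatures and for Arntl and Bhlhe41 at 4°C.

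Bhlhe41 at 4°C had the smallest p among the genotype comparisons. Its mean ± SD was 245 ± 70.2 (n = 5) in control and 144 ± 37.1 (n = 6) in knockout mice, and 5 of 6 knockout mice lay below all control mice. The log2 difference was -0.75 (95% confidence interval -1.29 to -0.22), with an unadjusted p of 0.00737 and an adjusted p of 0.532 in limma, and it did not pass the correction. At RT the means were 329 ± 145 (n = 6) and 312 ± 95.2 (n = 6), and the difference was -0.01 (adjusted p = 0.999).

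The other genes of the clock were read from lists, each gene counted by the same test. Of 8 clock repressors, 5 rose and 2 fell by cold in control mice (median log2 difference 0.60) and 3 rose and 2 fell in knockout mice (0.41), against a median of -0.02 over all genes in each genotype. Per3, a PER protein gene, fell from 2215 ± 263 (n = 6) to 283 ± 47.4 (n = 5) in control (log2 difference -2.97) and by 2.71 on the log2 scale in knockout mice. The related Per1 (0.66 in control, 0.51 in BAT-Mcu-KO) and Per2 (0.63 and 0.61) rose, as did Ciart (0.72 and 0.83), whose product represses the activating pair. The REV-ERB genes Nr1d1 and Nr1d2 (named after their values were seen) differed in direction in control mice. Nr1d1 fell from 596 ± 167 to 317 ± 100.4 in control mice (-0.93, adjusted p = 0.00688) and, with the same direction, from 587 ± 255 to 319 ± 119 in knockout mice (-0.86, adjusted p = 0.00863). Nr1d2 rose by 0.58 in control mice (adjusted p = 0.00564) and was 0.32 in knockout mice (adjusted p = 0.108). Cry1, a cryptochrome gene, rose by 0.78 in control mice (adjusted p = 0.00800) and was 0.54 in knockout mice (adjusted p = 0.0510). Without the 5 libraries highest in muscle markers, Nr1d1 and Cry1 in control and Per1 in knockout mice kept their sign and were no longer called, while Cry1 was called in knockout mice. Of the 2 ROR receptor genes read here, whose products act at the element shared with REV-ERB, Rora rose (0.80 in control and 0.49 in knockout mice) and Rorb was not called.

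The shares of all genes called by cold, 22.3% higher and 23.7% lower in control and 21.4% and 21.9% in knockout mice, are the background of these counts as well. Of 8 kinases and ubiquitin ligases that act on clock proteins, 4 rose and 2 fell in control and 3 rose and 3 fell in knockout mice (median log2 differences 0.32 and 0.20). The ligase adaptor genes Fbxw11 (1.07 and 0.82) and Btrc (-0.94 and -1.03), which encode close relatives that mark PER proteins for breakdown, moved in opposite directions, and the kinase genes Csnk1a1 (0.54 and 0.46) and Gsk3b (-0.39 and -0.34) did too. Of 7 known targets of the PAR bZIP factors 4 were in the table, and of these 3 fell and none rose in control mice and 2 fell and none rose in knockout mice (median -0.35 and -0.34). Alas1, the first enzyme of haem synthesis, went from 2855 ± 426 (n = 6) to 1387 ± 178 (n = 5) in control mice (-1.04) and fell by 0.76 on the log2 scale in knockout mice. Pdxk, the kinase that makes pyridoxal phosphate, fell by 0.40 and 0.54, while Por, the reductase that serves cytochrome P450 enzymes, fell by 0.30 in control, a call lost without those 5 libraries, and was -0.15 (adjusted p = 0.192) in knockout mice. Abcb1a, a drug efflux pump, was not called (0.03 and -0.01). Of 6 other clock-controlled genes 2 fell in control, and 2 rose and 2 fell in knockout mice (median 0.26 and 0.22). Wee1, a kinase that delays mitosis, had differences of -2.18 and -1.83 and Tspan4 of -1.27 and -1.16, and both passed the test in each genotype, while Usp2 (0.34 and -0.01) was not called in either and Nampt (0.29 and 0.58) was called in knockout mice. Without the 5 libraries Nampt and the ligase gene Fbxl21 were also called in control mice and Tsc22d3 in knockout mice. In limma 0 of the 28 tested genes of these 5 lists were called by genotype at RT, at 4°C or by the interaction (0, 3 and 0 at an unadjusted p under 0.05, the 3 being Per3, Alas1 and Nampt, against the same 5.15%, 6.98% and 5.99% of all genes).

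**Figure D4:**
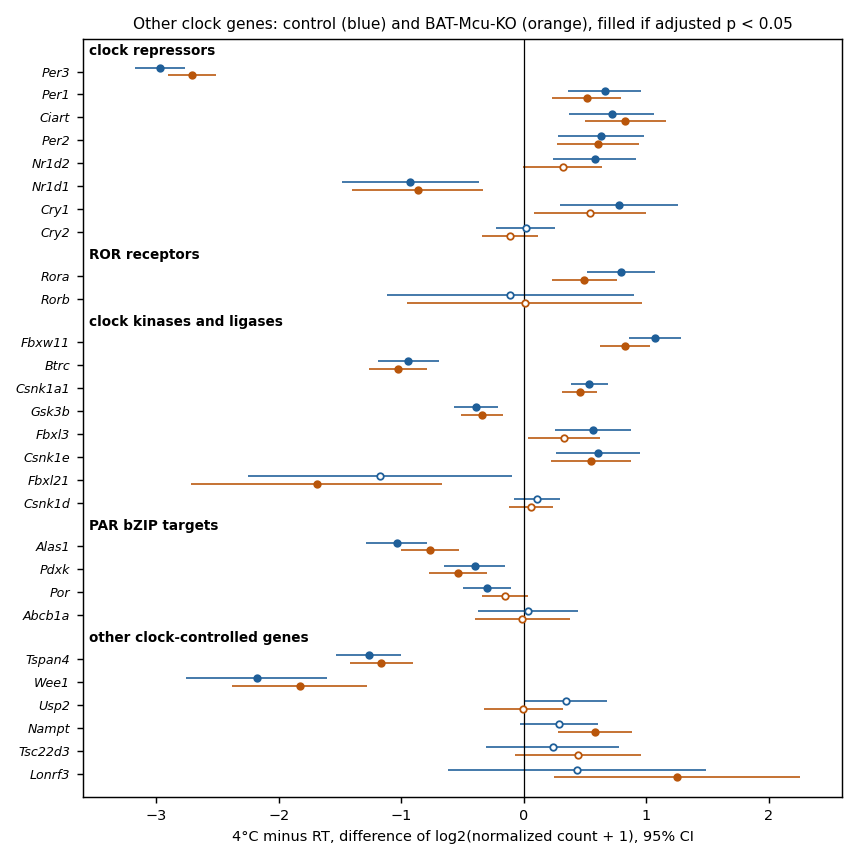
Differences of log2(normalized count + 1) by cold (x axis, 4°C minus RT, with 95% confidence intervals) for the genes of 5 clock lists in control (blue) and BAT-Mcu-KO mice (orange), filled where the adjusted p was under 0.05. Per3 and Wee1 lie farthest below 0, and Per1, Per2 and Ciart lie above 0 in both genotypes.

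Whether the genes varied together among mice of the same group was examined for 4 pairs, as deviations of log2(normalized count + 1) from the group mean over the 23 mice, with 100000 permutations within groups and adjustment over the 4 pairs. Arntl and Nfil3 had Pearson's r = 0.55 (permutation p = 0.0145, adjusted p = 0.0581) and Spearman's rho = 0.60 (permutation p = 0.00615, adjusted p = 0.0246). The 2 coefficients fell on either side of the threshold, and the relation stayed positive within RT (r = 0.58, n = 12) and within 4°C (r = 0.54, n = 11). Without the 2 mice farthest from the median of Arntl r was 0.53 (permutation p = 0.0357, adjusted p = 0.143) and rho 0.55 (adjusted p = 0.0641). Dbp and Tef had r = 0.38 (permutation p = 0.0717, adjusted p = 0.143) and rho = 0.40 (permutation p = 0.0740, adjusted p = 0.148), and r = 0.26 without the 2 farthest mice. Arntl and Dbp, an activator and its output gene, had r = -0.42 (permutation p = 0.148, adjusted p = 0.198) and rho = -0.38 (permutation p = 0.138, adjusted p = 0.184). This r was -0.20 without the 2 farthest mice, -0.51 within RT, 0.13 within 4°C and -0.16 without the 5 libraries highest in muscle markers, and none of these passed the test. Arntl and Npas2 had r = -0.03 (permutation p = 0.862, adjusted p = 0.862) and rho = -0.06 (permutation p = 0.783, adjusted p = 0.783). Npas2 had at most 4 reads in any mouse at RT, where counting error is a large part of its deviations. These coefficients thus say little about whether the 2 genes vary together.

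**Figure D5:**
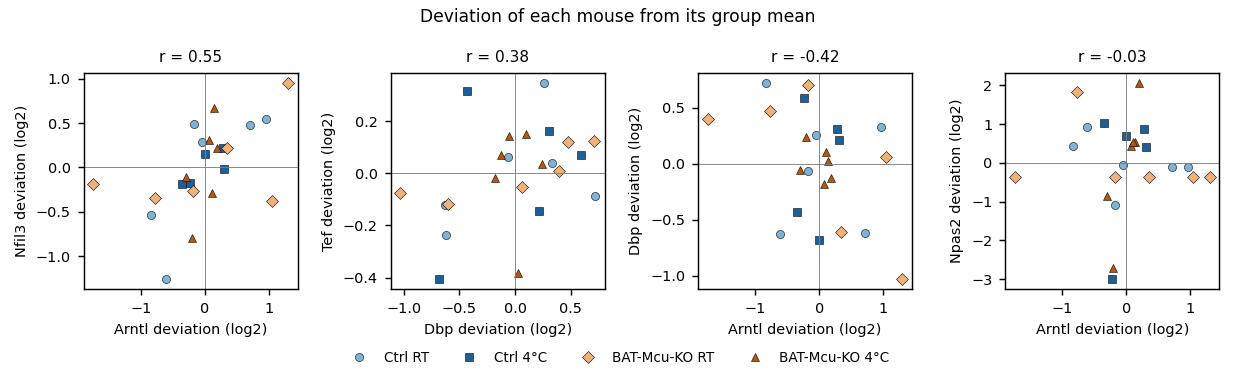
Deviations from the group mean of log2(normalized count + 1) for 4 pairs of genes, with 1 point per mouse and Pearson's r over 23 mice above each panel. Arntl and Nfil3 (left) have the highest r of the 4 pairs, 0.55, which did not pass the test after adjustment.

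The genes whose deviations from the group mean were most like those of each gene over the 23 mice, ranked by Pearson's r among all genes, are given as a description. For Arntl they were Cdkn1a (0.70), Cfap36 (0.69) and Pcgf2 (0.67), for Clock Gar1 (0.83), Rb1cc1 (0.77) and 6430590A07Rik (0.75), and for Npas2 Gm15860 (0.82), Gm4925 (0.77) and 4930581F22Rik (0.76). For Dbp they were Ap2a1 (0.84), Anapc2 (0.75) and Trpm4 (0.75), for Tef Nsd1 (0.82), Phf23 (0.81) and Gm16586 (0.80), and for Hlf Gm16982 (0.77), Fbxl17 (0.69) and Pnpla3 (0.69). For Nfil3 they were Fam214a (0.75), Man2c1os (0.72) and Zbtb16 (0.72), for Bhlhe40 Scd1 (0.82), Acbd5 (0.81) and Sft2d2 (0.81), and for Bhlhe41 Ccdc25 (0.83), Mau2 (0.82) and Apba3 (0.80). No gene of the 9 was among the nearest 3 of another. Scd1, a fatty acid desaturase, had a mean normalized count of 232395, whereas Gm15860, Gm4925 and Man2c1os had means of 7.70 to 12.1, where counting error is a large part of any deviation.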

How the data were processed

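RNA-seq libraries of BAT (Smart-seq2, paired reads of 25 bases) were aligned by the authors to mm10 with STAR (version 2.4.0j) and counted over GENCODE M7 exons with HTSeq regardless of strand. The deposited signal is a table of normalized counts: the authors kept genes with 8 or more reads in at least 6 samples and divided reads by DESeq2 size factors. A second deposited table, of the authors' own comparisons, was not used. Per-sample columns left out numbered 0. Groups and replicate numbers came from the labels. Dividing each mouse's values by what 1 read was worth gave whole numbers (tolerance 0.01 read), taken as the reads, 7129271 to 21006347 per mouse; depth limits Npas2 and, at RT, Arntl.

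Limma (version 3.58.1, R version 4.3.3) was fitted to log2(normalized count + 1) of all 23 mice, with 4 group means, a variance trend and Benjamini-Hochberg adjustment over 14651 genes at 0.05. A fold on this scale understates the change of low genes, so ratios of group means are also printed. The fit was tested on simulated counts. Alternatives were pseudocounts of 0.5 and 10, a minimum mean of 50, quantile and 75th percentile scaling, no trend, the 2 compared groups alone, a replicate block, DESeq2 (version 1.42.0) and edgeR (version 4.0.16) on recovered reads, each mouse left out and, chosen after seeing the data, leaving out the 5 libraries highest in muscle markers. Positions, exon lengths and overlaps are from GENCODE M21 (GRCm38). The 9 genes, the lists and the tests were chosen with earlier results of these data known. The genes named were the 9, up to 4 per other list with the smallest p by cold in control, the 3 most alike each gene, Mcu and Ucp1. Named outside this rule, with their values already seen, were Nr1d1, Nr1d2, Cry1, Fbxl21 and Tsc22d3. Genes that share exonic bases with some of the 9 were named for that overlap. 1 item of the gene lists is not reported here.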

Additional observations from a re-analysis of the deposited data

Results flagged for a closer look

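In 6 of 36 combinations of gene and group, 1 mouse stood apart from the others of its group by Dixon's criterion, which chance meets in about 1 of 20 groups. Npas2 was highest in BAT-Mcu-KO at RT replicate 2 (3.62, the only mouse of that group with a read) and in BAT-Mcu-KO at 4°C replicate 4 (26.5). Tef was lowest in BAT-Mcu-KO at 4°C replicate 1 (791), the deepest library and the mouse with the highest Nfil3. Nfil3 was highest in BAT-Mcu-KO at RT replicate 3 (170.0), which was also the highest of its group for Arntl. Bhlhe41 was highest in control at 4°C replicate 2 (366) and in BAT-Mcu-KO at 4°C replicate 3 (214). All values are normalized counts. Control at 4°C replicate 2 and BAT-Mcu-KO at RT replicate 3 are among the 5 libraries highest in muscle markers, and the part of those markers was not tested. Without control at 4°C replicate 2 the genotype difference of Bhlhe41 at 4°C was -0.60 on the log2 scale.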

How the results depend on the processing

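By cold, all 9 genes kept the sign of their log2 difference in both genotypes under every alternative run. Arntl, Clock, Tef, Hlf and Nfil3 kept their calls in both, and Bhlhe40, Bhlhe41 and Dbp kept theirs in knockout mice. Leaving out each mouse in turn gave 6 to 8 calls of the 9 in control and 9 in knockout mice, and without the libraries highest in muscle markers the counts were 7 and 8. With a minimum mean of 50, which left 7 of the 9 to test (without Npas2 and Dbp), 6 and 7 were called. DESeq2 and edgeR called 8 and 9. Deviations of same-numbered mice correlated at -0.204 to 0.065 in 3 comparisons and at 0.042 to 0.218 between genotypes at 4°C; not every pair was over 0.1, so the numbers were not taken to pair samples. With the replicate block 7 genes were called in control, where Npas2 was lost (1.71, adjusted p = 0.0787), and 9 in knockout mice. Depth limits Npas2 most.

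No genotype difference or interaction of the 9 was called under any alternative, and several small ones changed sign; the cause was not tested. Tef at RT was -0.008 with quantile normalization and -0.016 with 75th percentile scaling. Without the libraries highest in muscle markers, Bhlhe41 at RT was 0.054, Dbp and Bhlhe40 at 4°C were 0.18 and -0.24, and the interactions of Npas2 and Tef were -0.80 and -0.001. With a pseudocount of 10 the interaction of Npas2 was -0.037. Leaving out single mice gave at RT -0.035 to 0.573 for Arntl, -0.15 to 0.14 for Bhlhe41, -0.008 to 0.10 for Clock, -0.054 to 0.29 for Dbp, -0.30 to 0.057 for Nfil3 and -0.035 to 0.082 for Tef. At 4°C it gave -0.18 to 0.17 for Bhlhe40, -0.26 to 0.059 for Dbp, -0.069 to 0.23 for Nfil3, -1.04 to 0.26 for Npas2 and -0.002 to 0.18 for Tef. For the interaction it gave -0.41 to 0.004 for Bhlhe40, -0.017 to 0.37 for Nfil3, -0.32 to 0.98 for Npas2 and -0.015 to 0.17 for Tef. Over all genes limma called 7 by genotype at RT, 11 at 4°C and 0 by the interaction, against 20, 27 and 28 with DESeq2, 3 and 2 with the 2 compared groups alone and, at 4°C, 6 with edgeR, 7 without the trend or with the replicate block and 2 without the libraries highest in muscle markers. Leaving out single mice gave 5 to 8 at RT, 3 (without control 4°C replicate 2) to 16 (without control 4°C replicate 1) at 4°C and 0 to 1 by the interaction. The correlation of Arntl and Npas2 was 0.12 with a pseudocount of 10 and 0.56 within 4°C, and that of Arntl and Dbp was 0.13 within 4°C. Arntl and Nfil3 passed with a pseudocount of 10 (r = 0.58, permutation p = 0.00468, adjusted p = 0.0187), with r = 0.52 to 0.58 over all settings.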
